A study of Mus musculus with 6 samples.

Results

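Bile acid synthesis and canalicular transport were followed through 34 genes in the livers of HMGB2-KO and wild type (WT) mice. The genes were those whose annotated symbol is on a fixed list of enzymes, transporters and receptors of the pathway, and all 34 of 34 were among the 19505 genes measured, each through 1 row of the array table. The animals were male mice of the C57BL/6 background, 8 weeks old, 3 HMGB2-KO (animals 39, 41 and 32, here livers 1, 2 and 3) and 3 WT (animals 38, 40 and 31, here livers 1, 2 and 3). Total RNA of each whole liver was read on 1 Clariom S array, a single-colour array on which several short probes stand for each gene. No treatment is named for either group, and the labels do not say in which cells or by which allele HMGB2, a DNA-bending chromatin protein, was deleted.

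Bile acids are made from cholesterol in hepatocytes, either by the classic route that starts with the hydroxylase Cyp7a1 or by the oxysterol route that starts with Cyp27a1. The steroid ring and the side chain are then remodelled, the acid is joined to taurine, and the conjugate is pumped into the canaliculus, the narrow channel between hepatocytes, together with phospholipid and cholesterol. Bile acids return from the gut in portal blood and are taken up again at the basolateral membrane. Gut-derived FGF15, read in the liver by Fgfr4 with its partner Klb, and the bile acid receptor FXR hold synthesis in check.

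Every value below is read as a log2 difference from the baseline of a gene's own row, with the array median subtracted. The log base is not given, so the fold values rest on this reading. Livers can be compared for one gene, but genes cannot be compared with each other. Whether a gene lies above background cannot be read from such values, and the hepatocyte origin of the RNA could not be checked through marker levels. In whole-liver RNA, fewer cells of a type and less RNA per cell cannot be told apart. The array of WT liver 2 stood apart, with a median of 0.26 before centring, against -0.05 to 0.01 on the other arrays. Hmgb2 itself was at -0.66, -0.33 and -0.43 in HMGB2-KO livers 1 to 3, against 0.47, 0.36 and 0.42 in WT livers 1 to 3 (limma log2 fold change -0.89, SE 0.13, adjusted p = 0.645), so all HMGB2-KO livers were below all WT livers. Separate animals stand behind the livers, and 3 against 3 livers limit the precision.

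**Figure D1:**
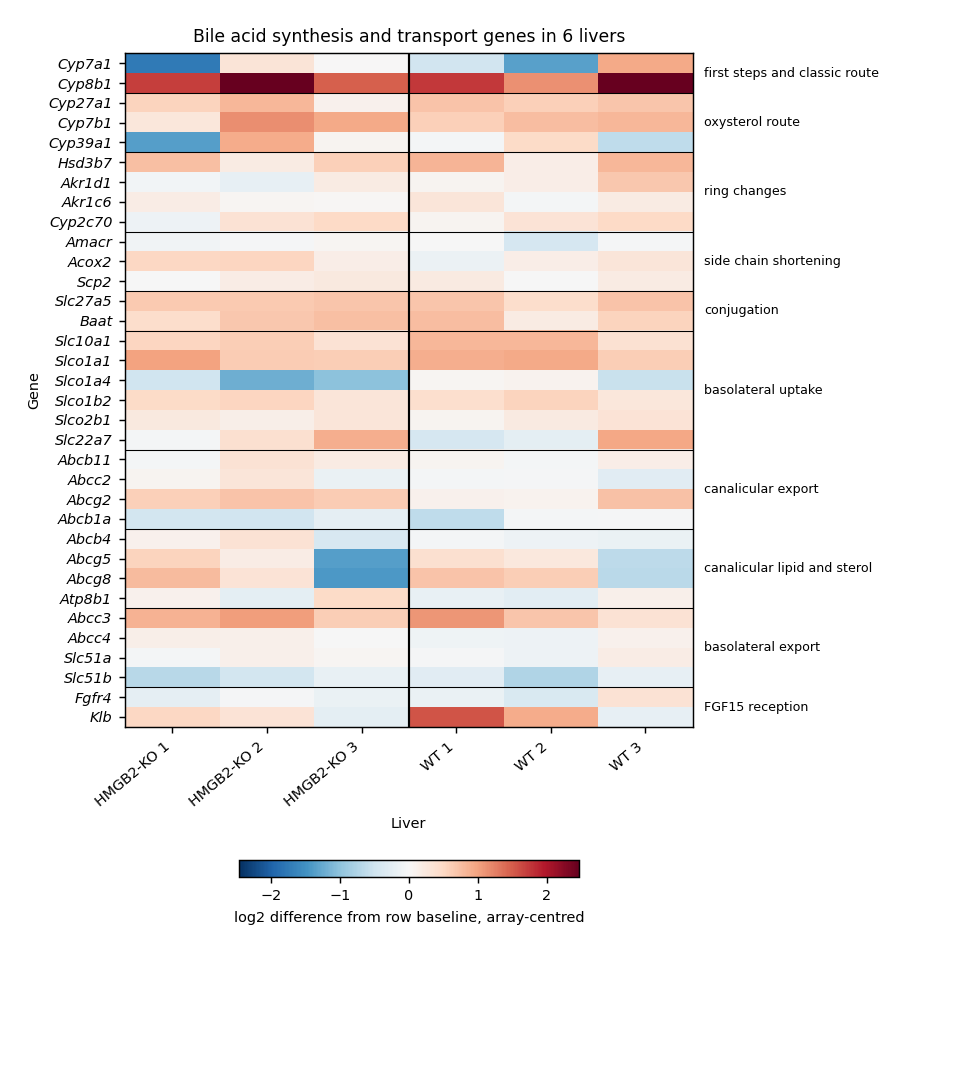
Log2 difference from the row baseline (colour) of the 34 genes (down the page, grouped by role) in the 3 HMGB2-KO livers on the left and the 3 WT livers on the right. Between-liver contrasts within a genotype, as for Cyp7a1, Abcg5 and Abcg8, are as strong in colour as any contrast between genotypes.

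No member passed the test between genotypes, and their fold changes were centred near 0. In the limma fit over all genes 0 of the 34 passed an adjusted p of 0.05, as did 0% of all genes, and the smallest adjusted p among the 34 was 0.994. Their log2 fold changes ran from -0.76 to 0.33 with a median of 0.015, against a median of -0.0019 over all genes, and 18 were above 0 and 16 below it, where 49.5% of all genes lay above 0. With the values as deposited, which lower every log2 fold change by 0.12, the median was -0.10 and 9 lay above 0. Log2 fold changes smaller than 0.2 in size were found for 25 members (73.5%) and for 73.5% of all genes. The count at an unadjusted p under 0.05 in limma was 1 of 34, against 3.68% of all genes. This member, Slco1a4, was lower in HMGB2-KO, and 2.61% of all genes were both at that p and lower. The count of members at that p was 0 without HMGB2-KO liver 2 or without WT liver 1, 2 without HMGB2-KO liver 3, 4 without WT liver 3 and 1 without WT liver 2. The count over all genes, 717 with all livers, moved as well, from 601 without HMGB2-KO liver 2 to 945 without WT liver 3. Without liver 3 of 1 genotype, animal 31 or 32 stands in the other genotype alone, so genotype and animal number are mixed. In 0 of 34 members did the 3 HMGB2-KO livers lie on one side of all 3 WT livers, where 9.67% of all genes showed this (5.35% lower and 4.32% higher in HMGB2-KO).

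**Figure D2:**
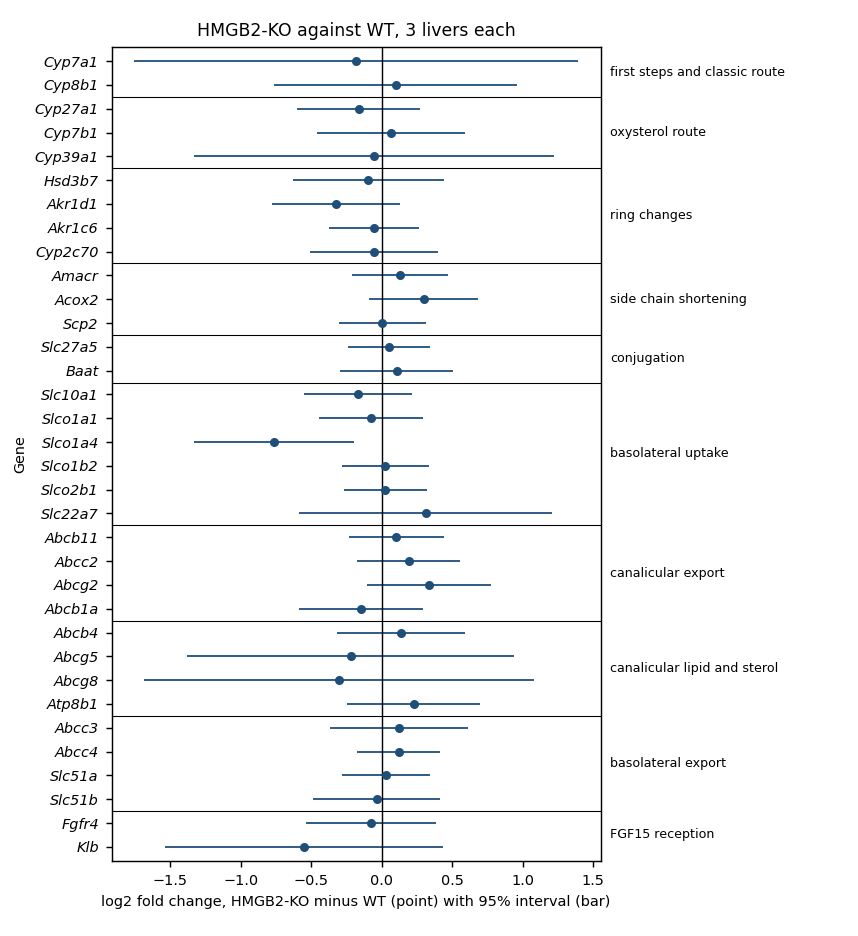
Log2 fold change, HMGB2-KO minus WT (points), with 95% confidence intervals from limma (bars), for the 34 genes grouped by role. The interval lies off 0 for Slco1a4 alone, and it is widest for Cyp7a1, from -1.76 to 1.39.

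The classic route showed wide scatter within each genotype, and neither of its genes passed the test. Cyp7a1, which sets the rate of the route, was at -1.74, 0.31 and 0.00 in HMGB2-KO livers 1 to 3, against -0.48, -1.34 and 0.94 in WT livers 1 to 3. Low and high livers occurred in both genotypes, and the groups overlapped over most of their range. The means were -0.48 ± 1.11 in HMGB2-KO and -0.29 ± 1.15 in WT (SD, n = 3 each). They differed by -0.18 (SE 0.68). Cyp8b1, the sterol hydroxylase that directs intermediates towards cholic acid, was at 1.72, 2.47 and 1.47 in HMGB2-KO livers 1 to 3, against 1.75, 1.13 and 2.47 in WT livers 1 to 3. Its log2 fold change was 0.10 (SE 0.37), and the highest values of both genotypes were alike.

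In the oxysterol route Cyp27a1, the mitochondrial hydroxylase of the sterol side chain, was at 0.56, 0.81 and 0.10 in HMGB2-KO livers 1 to 3, against 0.70, 0.58 and 0.68 in WT livers 1 to 3. The lowest and the highest of the 6 livers were both HMGB2-KO, and the log2 fold change was -0.16 (SE 0.19), or 0.04 within animals 38 to 41. Cyp7b1, the oxysterol hydroxylase, was at 0.06 (SE 0.23). Cyp39a1, another oxysterol hydroxylase, was at -0.06 (SE 0.55) and ran from -1.37 to 0.92, both ends in HMGB2-KO livers, with WT livers between -0.64 and 0.48.

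No ring or side chain enzyme passed the test. Akr1d1, the reductase that saturates the steroid ring, was at -0.07, -0.21 and 0.21 in HMGB2-KO livers 1 to 3, against 0.07, 0.16 and 0.67 in WT livers 1 to 3. The highest HMGB2-KO liver lay above 2 of the WT livers, and the log2 fold change of -0.32 (SE 0.20) had an unadjusted p of 0.139 in limma, or 0.0357 in the fit with an animal term and 0.0490 with the values as deposited. It was -0.14 without WT liver 3. Hsd3b7, the dehydrogenase that acts before it, was at -0.09 (SE 0.23), Akr1c6, an aldo-keto reductase of steroids, at -0.06 (SE 0.14), and Cyp2c70, which makes muricholic acids in mice, at -0.05 (SE 0.20). Acox2, the peroxisomal oxidase of the side chain, was at 0.51, 0.54 and 0.17 in HMGB2-KO livers 1 to 3, against -0.14, 0.16 and 0.30 in WT livers 1 to 3. Its log2 fold change was 0.30 (SE 0.17) with overlapping groups, made up of 0.51 within animals 38 to 41 (unadjusted p = 0.0306 in limma) and -0.13 between animals 32 and 31. It was 0.41 without HMGB2-KO liver 3 (unadjusted p = 0.0495 in limma), a fit that mixes genotype with animal number, and 0.17 without WT liver 1. Amacr, the racemase that prepares its substrate, was at -0.08, -0.03 and 0.04 in HMGB2-KO livers 1 to 3, against -0.01, -0.41 and -0.03 in WT livers 1 to 3. The lowest was WT liver 2, and the log2 fold change of 0.13 (SE 0.15) was 0.00065 without that liver. The thiolase gene Scp2 was at 0.0050 (SE 0.13).

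Neither conjugation gene passed the test, and Slc27a5 was the more level of the pair. Slc27a5, which activates bile acids with coenzyme A, stood at 0.66 ± 0.03 in HMGB2-KO and 0.61 ± 0.15 in WT (SD, n = 3 each). Baat, the transferase that adds taurine or glycine, stood at 0.61 ± 0.16 in HMGB2-KO and 0.50 ± 0.28 in WT (SD, n = 3 each). Their log2 fold changes were 0.05 (SE 0.13) and 0.11 (SE 0.17).

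Uptake carriers held the member with the smallest p. Slco1a4, an organic anion transporter of the basolateral membrane that takes up bile acids and drugs, was at -0.49, -1.21 and -1.01 in HMGB2-KO livers 1 to 3, against 0.04, 0.09 and -0.56 in WT livers 1 to 3. HMGB2-KO livers were lower, but HMGB2-KO liver 1 lay just above WT liver 3, so the groups overlapped. The means of -0.91 ± 0.37 in HMGB2-KO and -0.14 ± 0.36 in WT (SD, n = 3 each) differed by -0.76 (SE 0.24, 95% confidence interval -1.33 to -0.20), which is 1.70-fold lower in HMGB2-KO. In limma the unadjusted p was 0.0146 and the adjusted p was 0.994, and the gene ranked 160 by p among all genes. The exact two-sided permutation p was 0.2, where 3 against 3 livers allow no less than 0.1. The difference was -0.92 within animals 38 to 41 and -0.46 between animals 32 and 31. It was -0.65 without WT liver 2, and the unadjusted p passed 0.05 without HMGB2-KO liver 2 (0.0553) or WT liver 1 (0.0520).

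Its relatives on chromosome 6 had log2 fold changes near 0. Slco1a1, a male-predominant carrier of the same subfamily, was at -0.08 (SE 0.16), and Slco1b2, the main hepatocyte carrier for unconjugated bile acids, at 0.03 (SE 0.13). Taken within each liver, Slco1a4 minus Slco1a1 was -1.48, -1.83 and -1.62 in HMGB2-KO livers 1 to 3, against -0.85, -0.84 and -1.17 in WT livers 1 to 3. These differences did not overlap between genotypes (difference -0.69, exact two-sided permutation p = 0.1, the smallest possible with 3 against 3 livers). This pair was chosen after the values were seen, so the p supports nothing, and Slco1a4 alone overlapped. The genes of the family are alike in sequence, and how far the array's probes tell them apart was not tested.

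The other carriers did not pass the test. Slc10a1, the sodium-dependent carrier (NTCP) of conjugated bile acids, was at 0.54, 0.61 and 0.35 in HMGB2-KO livers 1 to 3, against 0.82, 0.82 and 0.37 in WT livers 1 to 3. Its lowest liver in each genotype was liver 3, and the log2 fold change was -0.17 (SE 0.16). Slc22a7, an organic anion transporter, was at -0.06, 0.39 and 0.89 in HMGB2-KO livers 1 to 3, against -0.42, -0.24 and 0.95 in WT livers 1 to 3, a log2 fold change of 0.31 (SE 0.39) with its highest value in liver 3 of each genotype. It was 0.74 without WT liver 3 (unadjusted p = 0.0320 in limma), 0.55 without HMGB2-KO liver 1, 0.14 without WT liver 2, 0.069 without HMGB2-KO liver 3 and 0.054 without WT liver 1. Without WT liver 3, animal 32 stands in HMGB2-KO alone, so genotype and animal number are mixed in that value. Slco2b1, a broad organic anion carrier, was at 0.03 (SE 0.13).

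Canalicular pumps did not pass the test in either direction. Abcb11, the bile salt export pump, was at -0.05, 0.36 and 0.20 in HMGB2-KO livers 1 to 3, against 0.07, -0.05 and 0.17 in WT livers 1 to 3, a log2 fold change of 0.10 (SE 0.15) with overlapping groups. Its 95% confidence interval was -0.24 to 0.44. Abcc2, which exports conjugated bilirubin and glutathione conjugates, was at 0.07, 0.29 and -0.16 in HMGB2-KO livers 1 to 3, against -0.05, -0.03 and -0.28 in WT livers 1 to 3. The log2 fold change was 0.19 (SE 0.16), and HMGB2-KO liver 3 lay below 2 of the WT livers. Abcg2, an exporter of drugs and urate, was at 0.59, 0.71 and 0.62 in HMGB2-KO livers 1 to 3, against 0.11, 0.08 and 0.73 in WT livers 1 to 3. WT liver 3 was the highest of all 6, so the log2 fold change of 0.33 (SE 0.19) was 0.55 within animals 38 to 41 and -0.11 between animals 32 and 31. It was 0.54 without WT liver 3 (unadjusted p = 0.00530 in limma), a fit that mixes genotype with animal number, and 0.22 without WT liver 2. Abcb1a, a drug efflux pump, was at -0.14 (SE 0.19).

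The genes that put lipid into bile had a split between livers. Abcg5 and Abcg8 encode the half-transporters that together secrete cholesterol. Abcg5 was at 0.54, 0.19 and -1.37 in HMGB2-KO livers 1 to 3, against 0.39, 0.27 and -0.64 in WT livers 1 to 3. Abcg8 was at 0.79, 0.35 and -1.42 in HMGB2-KO livers 1 to 3, against 0.70, 0.60 and -0.67 in WT livers 1 to 3. Liver 3 of each genotype was far below the others, and both genes put the 6 livers in the same order, from HMGB2-KO liver 1 at the top to HMGB2-KO liver 3 at the bottom. By genotype they were at -0.22 (SE 0.50) and -0.30 (SE 0.59). Abcb4, the phosphatidylcholine floppase, was at 0.14 (SE 0.19). Atp8b1, a flippase that protects the canalicular membrane, was at 0.11, -0.24 and 0.47 in HMGB2-KO livers 1 to 3, against -0.19, -0.27 and 0.12 in WT livers 1 to 3, a log2 fold change of 0.23 (SE 0.20) that ran from 0.046 without HMGB2-KO liver 3 to 0.40 without HMGB2-KO liver 2.

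Abcg5 and Abcg8 are read in opposite directions from start sites 110 bases apart, and their promoter windows are shown because these genes moved together across the livers. The windows (RefSeq, GRCm38.p6) run from 250 bases before to 50 bases after each start site and share 209 bases, read from opposite strands. Abcg8 lies on the plus strand at chr17:84682871-84683170 and Abcg5 on the minus strand at chr17:84682962-84683261. Capitals mark AGATAA, the core bound by GATA factors, or its reverse complement TTATCT.
Abcg8: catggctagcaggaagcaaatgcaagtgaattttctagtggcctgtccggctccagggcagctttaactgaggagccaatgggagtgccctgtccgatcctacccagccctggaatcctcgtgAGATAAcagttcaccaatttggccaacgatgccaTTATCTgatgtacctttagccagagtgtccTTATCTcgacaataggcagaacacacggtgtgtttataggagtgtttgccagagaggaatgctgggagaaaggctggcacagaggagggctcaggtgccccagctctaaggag
Abcg5: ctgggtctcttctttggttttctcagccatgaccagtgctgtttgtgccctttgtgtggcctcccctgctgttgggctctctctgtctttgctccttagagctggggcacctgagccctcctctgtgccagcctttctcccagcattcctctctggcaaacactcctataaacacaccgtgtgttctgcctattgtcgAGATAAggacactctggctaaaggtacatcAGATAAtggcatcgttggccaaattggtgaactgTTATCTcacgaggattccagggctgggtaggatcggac
The 3 matches lie in the stretch common to both windows, and 11.2% of 32851 promoter windows held at least 1 match on either strand and 0.107% held 3 or more. Of the 25 members with a window, Cyp2c70 was the only further one with AGATAA.

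Other motifs were searched in the same way on both strands, and a match here is a description of letters only. CAAAGTCCA, a consensus for the hepatocyte factor HNF4, was present in 0.475% of all windows and in those of Cyp2c70 and Cyp8b1. The Cyp8b1 window (minus strand, chr9:121916256-121916555) is shown with the match in capitals, since Cyp8b1 is one of the members that varied most between livers.
Cyp8b1: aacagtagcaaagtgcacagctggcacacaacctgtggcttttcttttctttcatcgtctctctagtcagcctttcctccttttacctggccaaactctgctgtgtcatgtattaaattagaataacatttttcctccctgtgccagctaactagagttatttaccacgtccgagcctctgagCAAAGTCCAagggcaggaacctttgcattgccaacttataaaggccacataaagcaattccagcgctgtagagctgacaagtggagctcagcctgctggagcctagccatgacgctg
AGGTCA, the half-site read by nuclear receptors, was present for 11 of the 25 members, Abcb11, Abcc2, Slc10a1, Slc51a and Slc51b among them, and in 16.3% of all windows. For each motif a member was counted if any window listed for it matched, whereas the shares are of single windows. The 2 are therefore unlike measures. CACGTG, the E-box, was present in those of Abcc4 and Slc51a and in 7.15% of all windows. Sequences were not used for Cyp7a1, Cyp7b1, Cyp39a1, Amacr, Baat, Slc27a5, Abcc3, Slc22a7 and Atp8b1.

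Basolateral exporters, which return bile acids to blood, did not pass the test. Abcc4 was at 0.14, 0.12 and -0.01 in HMGB2-KO livers 1 to 3, against -0.11, -0.12 and 0.11 in WT livers 1 to 3. WT liver 3 lay among the HMGB2-KO livers, and the log2 fold change was 0.12 (SE 0.13), or 0.0024 with the values as deposited. Abcc3 was at 0.12 (SE 0.21). Slc51a and Slc51b, the paired subunits of the organic solute transporter, were at 0.03 (SE 0.13) and -0.03 (SE 0.19).

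Of the FGF15 receptor pair, Fgfr4 was at -0.08 (SE 0.20). Klb, the co-receptor beta-Klotho, was at 0.52, 0.34 and -0.24 in HMGB2-KO livers 1 to 3, against 1.55, 0.93 and -0.21 in WT livers 1 to 3. HMGB2-KO livers 1 and 2 lay below WT livers 1 and 2, while liver 3 of both genotypes was low and nearly alike. The log2 fold change was -0.55 (SE 0.42, unadjusted p = 0.233 in limma), with -0.81 within animals 38 to 41 and -0.03 between animals 32 and 31. It was -1.03 without WT liver 3 (unadjusted p = 0.00878 in limma), -0.33 without HMGB2-KO liver 3 and -0.15 without WT liver 1. The fit without WT liver 3 holds animal 32 but not animal 31, so genotype and animal number cannot be told apart in it.

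**Figure D3:**
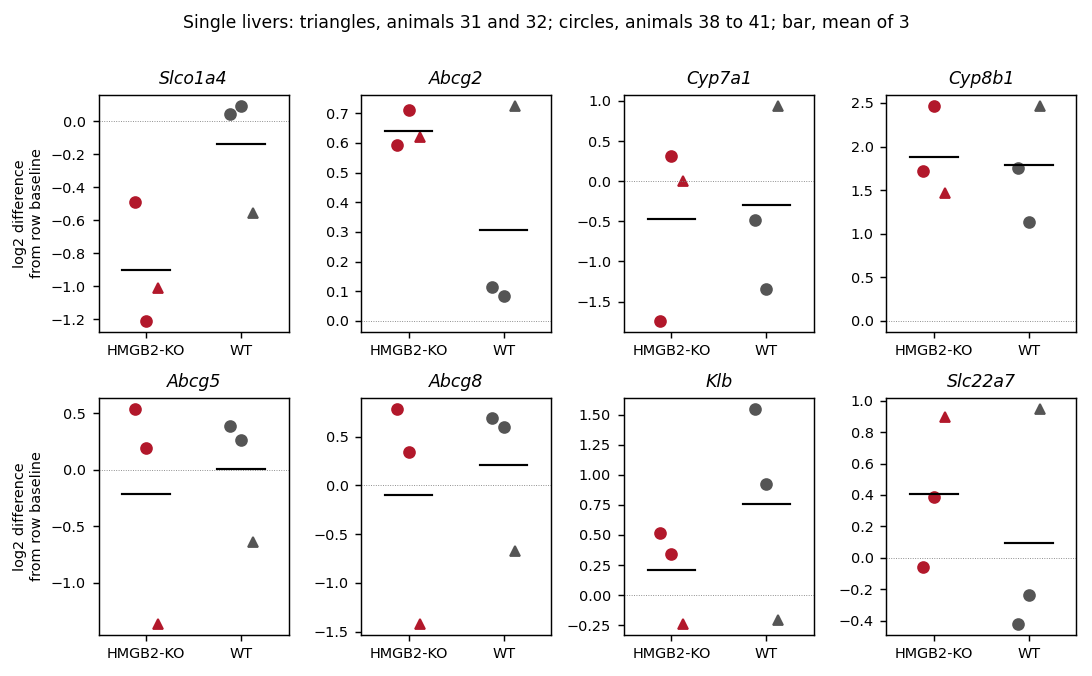
Log2 difference from the row baseline (vertical axes, each gene on its own scale) of 8 genes in single livers, HMGB2-KO in red on the left and WT in grey on the right, with the mean of 3 as a bar. Triangles are animals 32 and 31 and circles are animals 38 to 41. For Abcg5, Abcg8 and Klb the triangles of both genotypes lie below all circles, and for Slc22a7 they lie above them.

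The spread between livers of one genotype was wide for several members. The pooled within-genotype SD had a median of 0.27 over the 34 members, against 0.19 over all genes, and 7 of 34 (20.6%) were above the 95th percentile of all genes, a share that is 5.00% over all genes. They were Cyp7a1 (SD 1.13), Abcg8 (0.99), Cyp39a1 (0.91), Abcg5 (0.82), Klb (0.69), Slc22a7 (0.63) and Cyp8b1 (0.60). At the other end stood Slc27a5 (0.11) and Abcc4 (0.11).

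In several of these genes liver 3 of each genotype stood apart, and animals 31 and 32 (those livers) were therefore set against animals 38 to 41 in a limma fit with genotype as the other term. What the numbers stand for, such as litter, cage or day, is not given. Since the split was chosen with these values known, the differences below restate what the livers show, and they and the counts are given as a description and support nothing. Among the 34 members 0 passed the adjusted threshold, as against 0.041% of all genes, and 8 of 34 (23.5%) had an unadjusted p under 0.05, against 8.49% of all genes. The count was 5 without WT liver 3, which leaves 1 liver in that arm. In 16 of 34 members both livers lay on one side of the other 4, where 19.7% of all genes did, 7 higher and 9 lower in animals 31 and 32.

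Abcg5, Abcg8 and Klb were lower in animals 31 and 32, whereas Fgfr4, the partner of Klb, differed by 0.30 (SE 0.19). Abcg8 averaged -1.05 in animals 31 and 32 and 0.61 ± 0.19 (SD, n = 4) in animals 38 to 41, a log2 difference of -1.65 (SE 0.21), which is 3.15-fold lower in animals 31 and 32. Abcg5 averaged -1.0 in animals 31 and 32 and 0.35 ± 0.15 (SD, n = 4) in animals 38 to 41, a log2 difference of -1.35 (SE 0.21). With each liver left out in turn these differences ran from -1.99 to -1.32 for Abcg8 and from -1.73 to -0.97 for Abcg5. Klb differed by -1.06 (SE 0.25), or -0.67 without WT liver 3. The bile acid carriers Abcc3 and Slc10a1 differed by -0.44 (SE 0.16) and -0.34 (SE 0.13).

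On the higher side Slc22a7 averaged 0.92 in animals 31 and 32 and -0.08 ± 0.35 (SD, n = 4) in animals 38 to 41, a log2 difference of 1.00 (SE 0.20). Akr1d1 and Atp8b1 differed by 0.46 (SE 0.13) and 0.44 (SE 0.15). Cyp7a1 averaged 0.47 in animals 31 and 32 and -0.81 ± 0.92 (SD, n = 4) in animals 38 to 41. Its log2 difference of 1.28 (SE 0.58) came with overlapping livers, since HMGB2-KO liver 2 lay above HMGB2-KO liver 3, and was 0.71 without WT liver 3, 1.85 without HMGB2-KO liver 3 and 1.81 without HMGB2-KO liver 2. Cyp8b1 differed by 0.20 (SE 0.41).

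**Figure D4:**
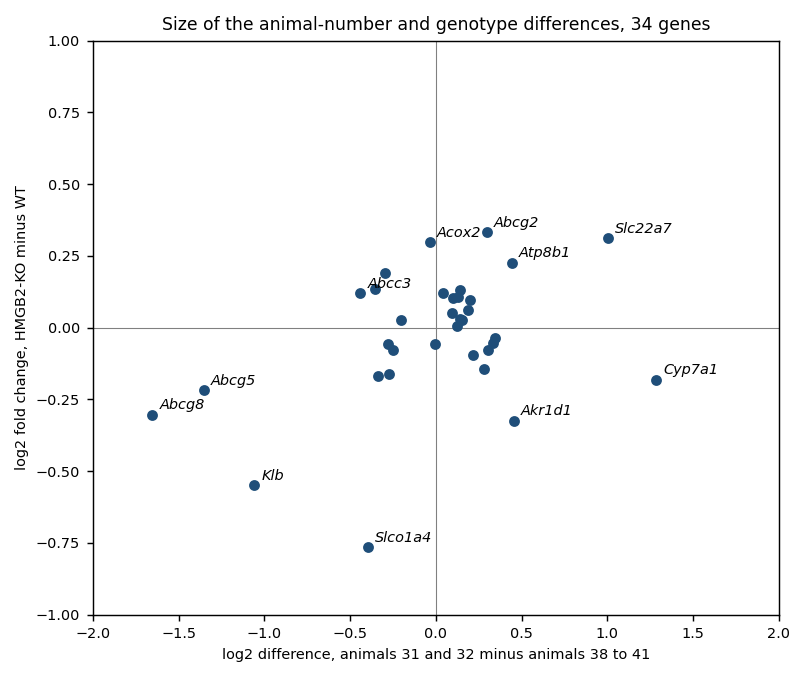
Log2 difference between animals 31 and 32 and animals 38 to 41 (horizontal axis) and log2 fold change of HMGB2-KO minus WT (vertical axis, drawn over a narrower range) for the 34 genes. Abcg8, Abcg5, Klb, Slc22a7 and Cyp7a1 lie more than 1 from 0 on the horizontal axis, and Slco1a4 has the largest distance from 0 on the vertical axis.

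Genes of the circadian clock were split by the same animals. The split and this list were chosen with results of these data known, so the calls and counts are a description and support nothing. Of 12 clock genes 3 passed the adjusted threshold in that limma fit (0.041% of all genes), namely Nr1d1, Nr1d2 and Npas2. An unadjusted p under 0.05 was found for 10 of 12 (8.49% of all genes), 4 higher and 6 lower in animals 31 and 32, and for 0 of 12 by genotype. Nr1d1, the clock repressor REV-ERB alpha, was at 2.88, 2.91 and -1.52 in HMGB2-KO livers 1 to 3, against 3.27, 3.03 and -1.57 in WT livers 1 to 3. Npas2, a clock activator, was at -1.40, -1.37 and 0.49 in HMGB2-KO livers 1 to 3, against -1.33, -1.14 and 0.54 in WT livers 1 to 3. Liver 3 of each genotype was thus low for Nr1d1 and high for Npas2. The activators Arntl (2.10, SE 0.31) and Clock (0.60, SE 0.22) and the repressor Cry1 (1.04, SE 0.14) were also higher in animals 31 and 32, and the output factor Dbp (-4.55, SE 0.45) and Nr1d2 (-2.41, SE 0.22) were lower. The labels give neither the time of day of collection nor the feeding state, and the part of either in the differences of Abcg5, Abcg8, Klb, Slc22a7 and Cyp7a1 was not tested.

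Other genes of the pathway were read from 3 lists, in which 37 of 41 genes were measured. By genotype 0 of the 37 passed the adjusted threshold and 1 had an unadjusted p under 0.05, against 3.68% of all genes, or 3 without WT liver 2 or HMGB2-KO liver 3 and 0 without HMGB2-KO liver 2 or WT liver 1. This was Akr1c14, a hydroxysteroid dehydrogenase that reduces bile acid intermediates, at 0.63, 1.19 and 0.86 in HMGB2-KO livers 1 to 3, against 0.35, 0.44 and 0.48 in WT livers 1 to 3. The log2 fold change was 0.47 (SE 0.16, limma adjusted p = 0.994). In 4 of the 37, Akr1c14, Gpbar1, S1pr2 and Vipas39, all HMGB2-KO livers lay above all WT livers, against 4.32% of all genes. With the values as deposited, where the array median of 0.26 is not taken from WT liver 2, the groups overlapped in each of these 4. In 0 of the 37 did they lie below them, against 5.35% of all genes. Further accessory genes of synthesis were Slc27a2, an acyl-CoA synthetase (0.34, SE 0.18), Abcd3, the peroxisomal importer (-0.27, SE 0.17), and Sult2a8, a bile acid sulfotransferase (0.10, SE 0.14). In that list 8 of 10 lay higher, with a median of 0.03, where 49.5% of all genes lay above 0. With the values as deposited, which lower every log2 fold change by 0.12, only Akr1c14 and Slc27a2 of that list stayed above 0.

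Among 16 nuclear receptors and other regulators 10 lay higher and 6 lower, with a median of 0.14. Of all genes, 49.5% lay above 0. With the values as deposited, which lower every log2 fold change by 0.12, Prox1 and Gpbar1 also fell below 0. The xenobiotic receptor Nr1i2 (PXR) was at -0.35 (SE 0.19), the bile acid-responsive receptor S1pr2 at 0.18 (SE 0.12) and Nr5a2 (LRH-1), an activator of Cyp7a1 and Cyp8b1, at 0.28 (SE 0.21). Mafg, an FXR-induced repressor, was at 0.98 (SE 0.74) with WT liver 2 at -2.79, against 0.13 and 0.26 in the other WT livers. Of 11 genes of the canalicular apparatus 8 lay higher, with a median of 0.06, against the same 49.5% of all genes. Only Vipas39 and Slc9a3r1 of these stayed above 0 with the values as deposited. Vipas39, needed for apical membrane traffic, was at 0.22 (SE 0.12), the scaffold Slc9a3r1 at 0.15 (SE 0.13), the motor Myo5b at -0.11 (SE 0.12) and the Abcc2 anchor Rdx at 0.10 (SE 0.11).

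No marker of the other cell types or zones passed the adjusted threshold. All 7 Kupffer cell markers lay higher in HMGB2-KO, where 49.5% of all genes lay above 0, and 0 passed the adjusted threshold. By liver their median was 0.47, 0.22 and 0.55 in HMGB2-KO livers 1 to 3. In WT livers 1 to 3 it was 0.25, 0.11 and 0.36. Left uncentred, the arrays give fold changes that are 0.12 less, which puts Adgre1 (0.08 as centred) and Marco (0.09) below 0. The other Kupffer cell markers stay above 0 there. After centring, the median log2 fold change of the Kupffer cell markers was 0.15. Medians were 0.01 for 7 cholangiocyte, 0.04 for 6 sinusoidal endothelial, 0.07 for 6 stellate cell, -0.15 for 4 intestinal and 0.07 for 7 hepatocyte markers. The endothelial marker Pecam1 was at 0.59, 0.58 and 0.63 in HMGB2-KO livers 1 to 3, against 0.25, 0.05 and -0.13 in WT livers 1 to 3, without overlap (log2 fold change 0.55, SE 0.14, limma unadjusted p = 0.00416, adjusted p = 0.994). Lyve1, another endothelial marker, was at 1.73, 1.52 and 0.58 in HMGB2-KO livers 1 to 3, against 0.53, 0.88 and 0.53 in WT livers 1 to 3 (0.63, SE 0.29). Of the 6 endothelial markers 3 lay higher and 3 lower in HMGB2-KO. The others were Stab2 (0.09), Kdr (-0.0052), Clec4g (-0.03) and Fcgr2b (-0.09). The Kupffer marker C1qa (0.25, SE 0.13), the periportal Cyp2f2 (0.25, SE 0.13) and the cholangiocyte Krt19 (0.15) were also higher without overlap. The intestinal Sis (-0.16) was lower without overlap. With the values as deposited the groups overlapped for Cyp2f2 and Krt19, but not for Pecam1, C1qa and Sis. Over all genes 4.32% were higher and 5.35% lower without overlap. Of the cholangiocyte markers 4 lay higher and 3 lower, with Epcam (-0.30) and Sox9 (-0.22) among the lower. Of the periportal markers 3 lay higher and 1, Hal (-0.18), lower. Medians were -0.07 for 4 pericentral and 0.27 for 4 periportal markers. Their part in the values of Slco1a4 or Akr1c14 was not tested.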

How the data were processed

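RNA of 6 livers was hybridised to Clariom S arrays after biotin labelling, per the labels' protocols. The deposited table has 22206 rows of values between -8.60 and 6.93, read here as log2 differences from a row baseline. The authors' software, normalization and log base: not given in the sources used here. All columns of values were used (0 left out). Rows were named through the platform annotation (19572 rows with 1 gene). Where a gene had more than 1 row (55 genes), that of highest mean was kept, leaving 19505 genes. Each array was centred on its median. The comparisons used lmFit and eBayes of limma 3.58.1 (R 4.3.3), two-sided, with Benjamini-Hochberg adjustment over all genes and a threshold of 0.05. The script was tested on simulated data. Single values were tested by exact permutation.

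The members and lists were chosen with earlier results of these data known. Values in every liver are given for the 12 members with the smallest p, any member without overlap, and Cyp7a1, Cyp8b1, Slc10a1 and Abcb11. Such values of any further gene, Abcg5, Abcg8 and Cyp39a1 among them, were added after values were seen, as was the comparison by animal number. For each list of other genes the 4 with the smallest p are named. Same-numbered livers were not treated as pairs: their deviations correlated at 0.04, 0.13 and 0.29, and not all of these are over 0.1.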

Additional observations from a re-analysis of the deposited data

How the results depend on the processing

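With each liver left out in turn, and under every other setting tried, 0 members passed the adjusted threshold. The number of members at an unadjusted p under 0.05 (1 in the setting reported) was 2 with the values as deposited, 2 with the replicate block, 2 with the animal term, 4 in animals 38 to 41 alone and 0 without moderation of the variance, and 0 to 4 with 1 liver left out. That number among the other pathway genes (1 as reported) was 2 with the replicate block, 2 with the animal term and 2 without moderation, and 0 to 3 with 1 liver left out. Same-numbered livers are not known to be paired, and the replicate block moved the count of all genes at that p to 858, against 717 as reported. With the values as deposited that count of all genes was 946, and with 1 liver left out it ran from 601 to 945. The median of the members was -0.10 with the values as deposited and 9 lay above 0. There Cyp8b1 (-0.021), Cyp7b1 (-0.055), Scp2 (-0.11), Baat (-0.011), Slc27a5 (-0.066), Abcb11 (-0.015), Slco1b2 (-0.093), Slco2b1 (-0.092) and Slc51a (-0.090) changed sign, by construction of the shift. Signs also turned for Cyp8b1 under quantile normalization (-0.14), for Cyp39a1 (0.044), Cyp2c70 (0.0025) and Scp2 (-0.024) with array weights, and for Cyp7a1 (0.20), Cyp27a1 (0.043), Scp2 (-0.013), Abcg5 (0.036) and Fgfr4 (0.15) in animals 38 to 41 alone, and the cause was not tested. With 1 liver left out, 20 of 34 members crossed 0. The ranges of their log2 fold changes were -0.71 to 0.45 for Cyp7a1, -0.23 to 0.44 for Cyp8b1, -0.32 to 0.031 for Cyp27a1, -0.12 to 0.32 for Cyp7b1, -0.58 to 0.56 for Cyp39a1, -0.18 to 0.13 for Cyp2c70 and -0.32 to 0.062 for Hsd3b7. They were -0.15 to 0.018 for Akr1c6, -0.071 to 0.079 for Scp2, -0.040 to 0.23 for Baat, -0.032 to 0.10 for Slc27a5, -0.029 to 0.34 for Abcb4, -0.062 to 0.31 for Abcc3, -0.044 to 0.096 for Slco1b2 and -0.042 to 0.089 for Slco2b1. The rest were -0.042 to 0.12 for Slc51a, -0.20 to 0.084 for Slc51b, -0.60 to 0.36 for Abcg5, -0.75 to 0.36 for Abcg8 and -0.23 to 0.14 for Fgfr4. In the comparison by animal number, added after the values were seen, the genes past the adjusted threshold numbered 8, 1 to 12 with 1 liver left out, and 22 with quantile normalization, 22 with array weights and 0 without moderation. A filter on dim probes, another background correction and slide as a block were not run, since the table holds no level, background or slide.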

Other observations

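Ppara, a fatty acid receptor among the regulators of the pathway, was at 1.45, 1.56 and 0.19 in HMGB2-KO livers 1 to 3, against 1.32, 1.51 and 0.48 in WT livers 1 to 3. Liver 3 of each genotype was the low one, and the log2 difference was -1.13 (SE 0.15) for animals 31 and 32 minus animals 38 to 41. This split was chosen with the values known, and the counts that follow are a description only. Of the 16 regulators measured, 3 had an unadjusted p under 0.05 in this comparison, against 8.49% of all genes, and in 4 of 16 the animals did not overlap, against 19.7% of all genes. Beside Ppara, the 3 were Hnf4a (-0.53, SE 0.19) and the coactivator Ppargc1a (-0.87, SE 0.33), whose livers overlapped.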
